A study of Mus musculus with 36 samples.

Results

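In mouse hippocampus, 587 autosomal regions carried both H3K9me3 and H3K36me3 in control animals. They were chosen from the control values: overlapping H3K9me3 peaks of the 2- and 6-week control lists were merged, and a region was kept when its H3K9me3 peak had a -log10 p of at least 5 in both control lists and it overlapped, by at least 1 bp, an H3K36me3 peak of at least 5 in either control list. The members were 5.14% of the 11422 regions that met the H3K9me3 condition, out of 78136 merged H3K9me3 regions in all. Of the rest of the 11422, 10680 overlapped no control H3K36me3 peak of any height and 155 overlapped only H3K36me3 peaks under the minimum. The 10680 are called H3K9me3-only below, and 84088 regions with H3K36me3 in both control lists and no control H3K9me3 peak are called H3K36me3-only.

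Trimethylation of lysine 9 of histone H3 (H3K9me3) is the mark of constitutive heterochromatin and of silenced repeats, is laid down by Setdb1 and the Suv39h enzymes, and is bound by HP1 proteins. Trimethylation of lysine 36 (H3K36me3) is deposited by Setd2 behind elongating RNA polymerase II and marks the bodies of transcribed genes. The marks are mostly found apart, and a known exception in mammalian cells is the family of zinc finger genes, which lie in clusters and can carry both marks.

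The study compared the CK-p25 mouse, a double-transgenic line in which p25, an activating fragment of the Cdk5 activator p35, can be induced, with control littermates labelled CK. Adult females of 3 months were used, and whole hippocampus was taken 2 or 6 weeks after p25 induction, which gave the groups CK_2wk, CK_6wk, CKp25_2wk and CKp25_6wk. Each group had 1 chromatin immunoprecipitation peak list for each of 7 histone marks, called against whole cell extract, and 3 RNA libraries. The labels do not say how many animals a peak list held, nor whether RNA libraries came from separate animals.

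With 1 peak list a group, differences between lists had no replicate check and no p-value was computed for them. A mark was counted as present at a region when a peak of -log10 p at least 5 overlapped it. Intervals on shares of regions are exact binomial 95% intervals, which cover counting error only, and neighbouring regions are not independent. Fold enrichments over extract and -log10 p-values are the authors' own. At that minimum the autosomal H3K9me3 lists held 27826 peaks in CK_2wk, 25988 in CK_6wk, 16689 in CKp25_2wk and 25090 in CKp25_6wk, so a share in CKp25_2wk is read against the shortest list. The H3K36me3 lists held 134862 to 146744 peaks. The X chromosome, which held 35.2 to 42.0% of all H3K9me3 peaks, was outside the choice of regions.

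The members were short. Their median width was 930 bp (quartiles 602.5 and 1661 bp), against 716 bp for H3K9me3-only and 1148 bp for H3K36me3-only regions, and together they covered 845 kb. They lay at a median of 11.2 kb from the nearest CK_2wk H3K4me3 peak, a mark of promoters. That distance was 28.3 kb for H3K9me3-only regions and 9.91 kb for H3K36me3-only regions, so the members were placed more like the latter. The minimum drew a line through a continuum: 81 members had a lower control H3K9me3 value between 5 and 5.5, and 354 regions with H3K36me3 fell between 4.5 and 5. Just inside it was chr5:139054098-139054778 at 5.00, and just outside chr13:120283237-120283449 at 4.98. For H3K36me3 the nearest were chr9:3029993-3030433 at 5.03 inside and chr15:57612766-57613681 at 4.95 outside.

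H3K36me3 met the minimum in both control lists at 424 members, in CK_2wk alone at 75 and in CK_6wk alone at 88. These counts come from the choice itself. They amount to 499 members in CK_2wk and 512 in CK_6wk, beside 4.37% and 4.48% of all 11422 H3K9me3 regions. H3K36me3 peaks covered a median of 79.9% of a member in CK_2wk and 79.4% in CK_6wk, and the strongest summits of both marks lay a median of 297 and 260.5 bp apart. At 340 of 499 members in CK_2wk and 331 of 512 in CK_6wk the H3K36me3 peak reached beyond the region.

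**Figure D1:**
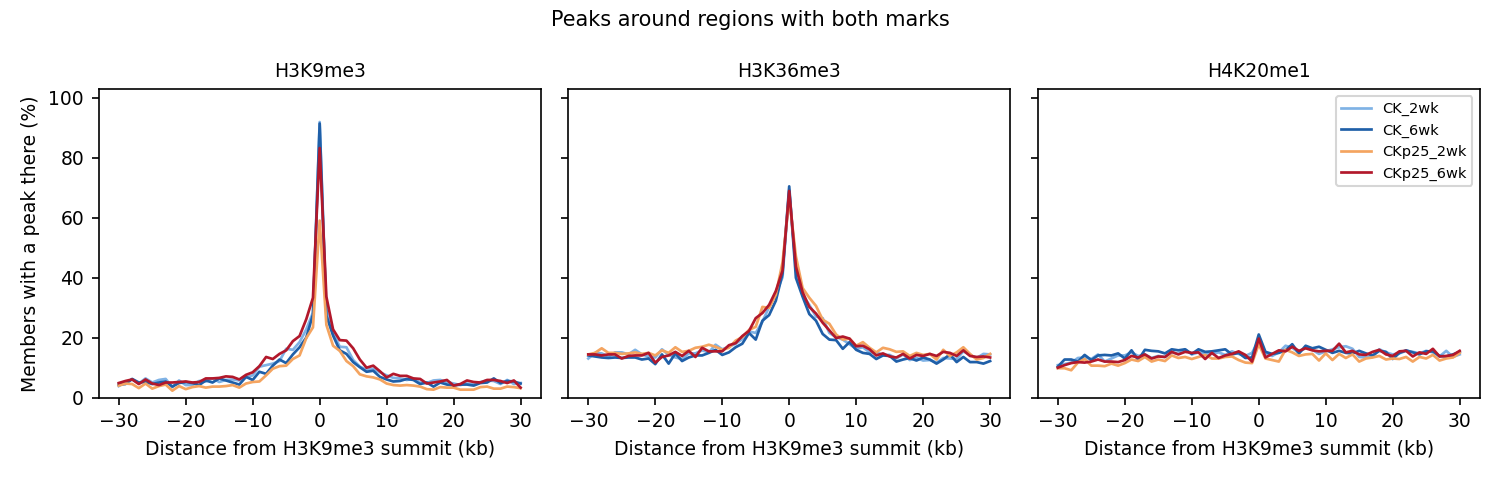
Share of the 587 members (vertical axis, percent) that had a peak of H3K9me3, H3K36me3 or H4K20me1 at each distance, in kb, from the summit of the strongest control H3K9me3 peak; lines are the 4 groups. At the summit H3K9me3 was present at 59.1 to 92.0% and H3K36me3 at 66.6 to 70.5% of members, a maximum that follows from the choice of regions, and H3K36me3 lay between 12.3 and 14.7% at 30 kb to the right.

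Members were chosen for overlapping peaks of both marks, so a maximum at the summit and a fall beside it are fixed by the choice and are given as a description. At the H3K9me3 summit, 69.3% of members had an H3K36me3 peak in CK_2wk, 70.5% in CK_6wk, 66.6% in CKp25_2wk and 69.0% in CKp25_6wk. At 5 kb to the right these shares were 26.6, 21.3, 26.1 and 25%, and at 10 kb they were 16.4, 16.0, 17.4 and 17.2%. H3K9me3 was present at 12.6, 11.9, 10.6 and 16.5% of members at 5 kb and at 3.24 to 4.94% at 30 kb.

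Of all members, 418 (71.2%, 95% interval 67.4 to 74.8%) had an H3K9me3 peak in CKp25_2wk and 523 (89.1%, 86.3 to 91.5%) in CKp25_6wk. Among all 11422 H3K9me3 regions the shares were 52% and 67.4%, and among H3K9me3-only regions 50.9% and 66.0%. Every region here had H3K9me3 in both control lists by the choice made, so a share under 100% in CKp25 is no loss in itself. H3K9me3 was present in both CKp25 lists at 398 members, in CKp25_6wk alone at 125, in CKp25_2wk alone at 20 and in neither at 44. At 17 members there was no CKp25 H3K9me3 peak of any height at either time. These joint counts were made for members alone. List by list, a peak of any height was present at 86.5% of members in CKp25_2wk and 95.2% in CKp25_6wk. Among all 11422 H3K9me3 regions those shares were 74.9% and 86.2%.

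Regions were then split by the lower of their control H3K9me3 values, in -log10 p. From 5 to 6, 44.5% of 155 members and 35.0% of 4799 H3K9me3-only regions had H3K9me3 in CKp25_2wk, and 80.6% and 51.2% had it in CKp25_6wk. From 6 to 8 the shares were 60.8% of 166 members and 53.1% of 3573 other regions at 2 weeks, and 84.3% and 70.2% at 6 weeks. From 8 to 12 they were 87.8% of 147 and 77.1% of 1898 at 2 weeks, and 95.2% and 88.4% at 6 weeks. At 12 or more nearly every region of either kind was marked, with 119 of 119 members in CKp25_2wk and 118 of 119 in CKp25_6wk. The gap between members and H3K9me3-only regions was widest for the weakest regions at 6 weeks. These bands match 1 value alone, and members were wider than H3K9me3-only regions. Among regions of 500 to 1000 bp, a range chosen after seeing the data, 87.4% of 87 members (78.5 to 93.5%) and 54.3% of 2638 H3K9me3-only regions (52.4 to 56.2%) in the weakest band had H3K9me3 in CKp25_6wk. In CKp25_2wk the weakest band held 47.1% (36.3 to 58.1%) and 36.3% (34.4 to 38.1%). Of the bands from 6 upward, the intervals at this width lay apart only from 6 to 8 at 6 weeks, at 85.5% (76.1 to 92.3%) and 70.4% (68.3 to 72.4%).

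**Figure D2:**
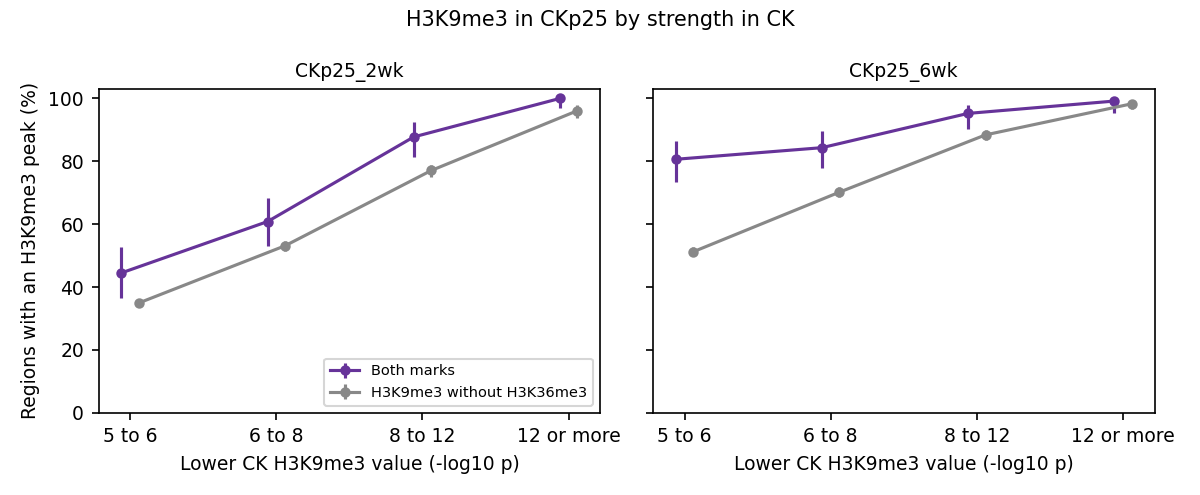
Share of regions with an H3K9me3 peak in CKp25_2wk (left) and CKp25_6wk (right), in percent, by the lower control H3K9me3 value in -log10 p, for the members and for H3K9me3-only regions; bars are exact binomial 95% intervals. Members lie above the other regions in each band, from 80.6 against 51.2% in the weakest band to 99.2 against 98.3% in the strongest at 6 weeks.

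H3K36me3 was present at 465 members (79.2%, 75.7 to 82.4%) in CKp25_2wk and 484 (82.5%, 79.1 to 85.4%) in CKp25_6wk, beside 4.7% and 5.21% of all H3K9me3 regions. In H3K36me3-only regions, which carried it in both control lists by choice, the shares were 92% and 89.9%. The group that shares this condition is the 424 members with H3K36me3 in both control lists, of which 91.7% had it in CKp25_2wk and 94.1% in CKp25_6wk. The 2 sets were not matched for strength. The lower control H3K36me3 value was 12 or more at 190 of 424 members and 26199 of 84088 H3K36me3-only regions. Member regions were also drawn from H3K9me3 peaks and the others from H3K36me3 peaks. The 75 members with control H3K36me3 at 2 weeks alone had it at 53.3% and 56.0%, and the 88 with it at 6 weeks alone at 40.9% and 48.9%. H3K36me3 was thus found again most often where both control lists had it.

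Read together, 341 members (58.1%) carried both marks in CKp25_2wk and 431 (73.4%) in CKp25_6wk. In CKp25_2wk, 124 had H3K36me3 alone, 77 H3K9me3 alone and 45 neither mark. In CKp25_6wk these counts were 53, 92 and 11. Members with H3K36me3 but no H3K9me3 were thus more frequent in CKp25_2wk, the group with the shortest H3K9me3 list. When the lists of a mark were limited to the same number of strongest peaks in every group, 460 regions met the rule and H3K9me3 was found at 78.7% of them in CKp25_2wk and 85.9% in CKp25_6wk. Both marks in both CKp25 lists were seen at 300 members.

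Starting from 1 control list avoids the selection on both, and lets the other control list serve as a comparison. Of 963 CK_2wk H3K9me3 peaks that overlapped a CK_2wk H3K36me3 peak, 57.7% overlapped an H3K9me3 peak in CK_6wk (45.4% of all CK_2wk H3K9me3 peaks did), 47.98% in CKp25_2wk (31.2%) and 68.5% in CKp25_6wk (43.7%). From the 883 such peaks of CK_6wk, 65.1% were met in CK_2wk (47.8%), 53.3% in CKp25_2wk (32.5%) and 71.8% in CKp25_6wk (45.4%). Peaks with both marks were thus met again more often in each of these lists, the other control list included. These peaks were not matched for strength or width. Members were stronger than all H3K9me3 regions (median CK_2wk -log10 p of 8.76 against 6.94) and wider (930 against 724 bp). With equal numbers of peaks the shares from CK_2wk were 62.1% in CK_6wk, 59.5% in CKp25_2wk and 71.0% in CKp25_6wk, against 45.02, 40.04 and 44.4% for peaks without H3K36me3. The shares in CKp25_2wk and CK_6wk then lay within their counting intervals of each other (55.8 to 63.2% and 58.4 to 65.7%), while that in CKp25_6wk (67.5 to 74.4%) lay above them. Starting from CK_6wk with equal numbers, the share was 70.6% in CK_2wk (66.9 to 74.1%), 63.6% in CKp25_2wk (59.7 to 67.3%) and 73.0% in CKp25_6wk (69.3 to 76.4%), so CKp25_6wk did not stand above the other control list there.

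The CKp25 lists themselves held a larger share of H3K9me3 peaks with H3K36me3. Such peaks numbered 963 (3.46%) in CK_2wk, 883 (3.4%) in CK_6wk, 775 (4.64%) in CKp25_2wk and 1284 (5.12%) in CKp25_6wk. With equal numbers of peaks the shares were 4.22, 3.83, 4.58 and 5.55%, so that the gap at 2 weeks narrowed while that at 6 weeks did not. The same rule applied to both CKp25 lists in place of the control lists gave 623 regions, 8.06% of 7730. Of the members, 372 (63.4%) overlapped these, and 377 of the 623 (60.5%) overlapped a member. Of the 246 CKp25 regions outside the members, 93 met the H3K9me3 minimum in both control lists, 87 in 1 and 66 in neither, and 20 of these 66 had no control H3K9me3 peak of any height. H3K36me3 met the minimum in no control list at 124 of the 246, and 65 of these had no control H3K36me3 peak of any height. Such overlaps were not counted for all 7730 or 11422 regions, so these counts alone do not show a gain of both marks. Of H3K9me3 peaks without H3K36me3, 52.4% in CKp25_2wk and 47.1% in CKp25_6wk overlapped an H3K9me3 peak of CK_2wk. The 8.06% was not recomputed with equal numbers of peaks.

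**Figure D3:**
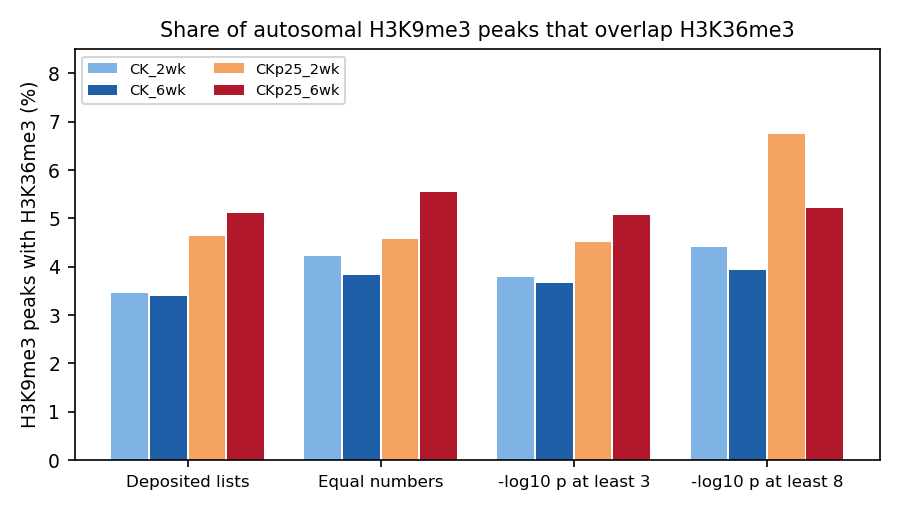
Share of autosomal H3K9me3 peaks that overlapped an H3K36me3 peak of the same group, in percent, in the 4 groups, for the lists as deposited at -log10 p of at least 5, for equal numbers of peaks and for minima of 3 and 8. In each of these 4 settings both CKp25 groups lie above both CK groups, from 4.64 and 5.12% against 3.46 and 3.4% as deposited.

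Single members show the range. The widest, chr10:81517552-81528441 (10890 bp), had H3K9me3 at 4.25-fold over extract in CK_2wk, 5.11-fold in CK_6wk, 5.86-fold in CKp25_2wk and 4.04-fold in CKp25_6wk. Its H3K36me3 was 4.09-, 5.08-, 4.14- and 4.23-fold in the same order, and no other mark had a peak there in any list. The next widest, chr17:22909621-22919992 (10372 bp), had H3K9me3 at 5.18-, 5.65-, 4.42- and 5.43-fold and H3K36me3 at 3.13-, 4.02-, 3.07- and 3.27-fold, again with no other mark. At the third, chr10:81610190-81618361 (8172 bp), H3K9me3 was 6.32-, 4.89-, 5.06- and 5.65-fold and H3K36me3 5.005-, 4.21-, 4.34- and 3.63-fold. Folds of different lists are scaled separately and give no change between groups. These 3 members carried both marks in all 4 groups.

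The strongest of the 17 members without any CKp25 H3K9me3 peak was chr9:70471030-70471452, with an H3K9me3 -log10 p of 8.75 in CK_2wk and 8.27 in CK_6wk. Its H3K36me3 was 10.01, 9.27, 8.75 and 12.9 in CK_2wk, CK_6wk, CKp25_2wk and CKp25_6wk. At chr1:44052588-44053527 the control H3K9me3 values were 8.09 and 8.4, and H3K36me3 was 10.4, 8.05, 17.4 and 12.2. At chr13:67642590-67642960 they were 6.84 and 6.48, with H3K36me3 at 20.2, 18.5, 15.5 and 20.2. At chr10:19321495-19321898 they were 6.46 and 7.66, with H3K36me3 at 11.2, 10.1, 14.7 and 11.7. The fifth, chr7:66928980-66929450, had 5.98 and 6.2, with H3K36me3 at 17.7, 15.8, 9.72 and 6.21. All 5 had H3K36me3 in both CKp25 lists.

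Across members, fold enrichments of both marks were loosely related. Pearson's r between H3K9me3 and H3K36me3 folds was 0.24 over 541 members with both values in CK_2wk, 0.31 over 550 in CK_6wk, 0.26 over 455 in CKp25_2wk and 0.32 over 502 in CKp25_6wk. H3K36me3 folds were related more closely between CK_2wk and CK_6wk (r = 0.79, n = 504) than H3K9me3 folds were (r = 0.66, n = 587). The points of a list share its extract and depth, and regions are not replicates. The relation of control to CKp25 was similar in size, at 0.79 for H3K36me3 (n = 503) and 0.59 for H3K9me3 (n = 508) at 2 weeks and 0.74 (n = 504) and 0.64 (n = 559) at 6 weeks.

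Some members lay near others. With gaps of up to 500 kb they formed 303 groups, of which 213 held a single member, 68 held 2 to 4 and 22 held 5 or more. These 22 groups held 209 members (35.6%). Grouping was not counted for H3K9me3-only or H3K36me3-only regions, so this share has no reference. Chromosome 17 held 75 members (12.8%, against 6.79% of H3K9me3-only regions) and chromosome 13 held 65 (11.1%, against 6.06%). Of the members, 58 (9.88%) lay on chromosome 7, which held 10.1% of the H3K9me3-only regions.

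The largest group, at chr17:21161937-23316378, held 35 members. H3K9me3 was present at 28 of them in CKp25_2wk and 34 in CKp25_6wk, and H3K36me3 at 32, 31, 29 and 32 in CK_2wk, CK_6wk, CKp25_2wk and CKp25_6wk. The group of 21 at chr13:67138307-67927831 had H3K9me3 at 17 and 18 in the CKp25 lists and H3K36me3 at 20, 20, 20 and 19. The group of 16 at chr10:81472045-81872758 had H3K9me3 at all 16 in both CKp25 lists and H3K36me3 at 12, 15, 11 and 10. In these 3 groups H3K27me3, H3K4me1, H3K4me3 and H3K27ac had no peak of that height at any member in any list.

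At chr7:13072493-13455434, 12 members had H3K9me3 at 11 and 11 in the CKp25 lists and H3K36me3 at 11, 11, 10 and 10. At chr8:71743836-72290721, all 11 members had H3K9me3 and H3K36me3 in all 4 groups. Both groups also lacked H3K27me3, H3K4me1, H3K4me3 and H3K27ac. The group at chr9:2999887-3038581, also of 11, differed: H3K27me3 was present at 10 of its members in CK_2wk, 10 in CK_6wk, 11 in CKp25_2wk and 11 in CKp25_6wk, and H3K4me1 at 6, 10, 5 and 11.

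Members in groups of 5 or more were wider, at a median of 1385 bp against 742 bp for single members, and stronger in control, at a median lower H3K9me3 -log10 p of 8.9 against 6.87. H3K9me3 was present in CKp25_2wk at 86.1% of the 209 (80.7 to 90.5%) and 58.7% of the 213 single members (51.8 to 65.4%), and in CKp25_6wk at 95.2 and 84.0%. H4K20me1 went the other way, at 15.3, 17.7, 16.7 and 13.9% of grouped members in CK_2wk, CK_6wk, CKp25_2wk and CKp25_6wk against 31.5, 36.6, 32.4 and 31.5% of single ones. H3K27me3 was present at 10, 10, 11 and 12 of the 209 grouped members (4.78 to 5.74%) and at 14, 14, 14 and 15 of 213 single ones (6.57 to 7.04%). Nearly all of the former lay in the group at the start of chromosome 9: without it, a choice made after seeing these peaks, H3K27me3 was present at 0 of 198 grouped members in CK_2wk, CK_6wk and CKp25_2wk, which allows a share of up to 1.85%, and at 1 in CKp25_6wk. The part of region width and strength in these differences was not tested.

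H4K20me1, a mark found over transcribed gene bodies, was the third mark of the members. It was present at 149 members in CK_2wk (25.4%, 21.9 to 29.1%), 162 in CK_6wk (27.6%), 149 in CKp25_2wk (25.4%) and 143 in CKp25_6wk (24.4%, 20.9 to 28.0%). Among all H3K9me3 regions it was present at 2.78, 3.04, 2.65 and 2.99%, and among H3K36me3-only regions at 61.2, 60.8, 54.8 and 58.3%. The members thus lay between both sets, with no difference between groups larger than counting error. Among the 424 members with H3K36me3 in both control lists, as all H3K36me3-only regions had it, 26.9% had H4K20me1 in CK_2wk (22.7 to 31.4%), against 61.2% of H3K36me3-only regions. Where the lower control H3K36me3 value was 12 or more, the shares were 35.8% of 190 members and 79.4% of 26199 H3K36me3-only regions, and between 5 and 8 they were 19.1% of 141 and 49.6% of 34498. Among regions of 500 to 1000 bp, a range chosen after seeing the data, H4K20me1 was present at 63.8% of 58 members (50.1 to 76.0%) and 65.8% of 2527 H3K36me3-only regions at 12 or more, and at 22.6% of 62 (12.9 to 35.0%) and 49.1% of 17365 between 5 and 8. From 8 to 12 the CK_2wk shares were 33.3% of 42 (19.6 to 49.5%) and 53.3% of 7413 (52.2 to 54.4%). At this width the CK_2wk intervals lay apart from 5 to 8 and from 8 to 12, and overlapped at 12 or more. From 8 to 12 they overlapped in CK_6wk (23.6 to 54.4% and 51.5 to 53.8%), CKp25_2wk and CKp25_6wk. The width is that of the H3K9me3 region in members and of the H3K36me3 region in the other set.

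**Figure D4:**
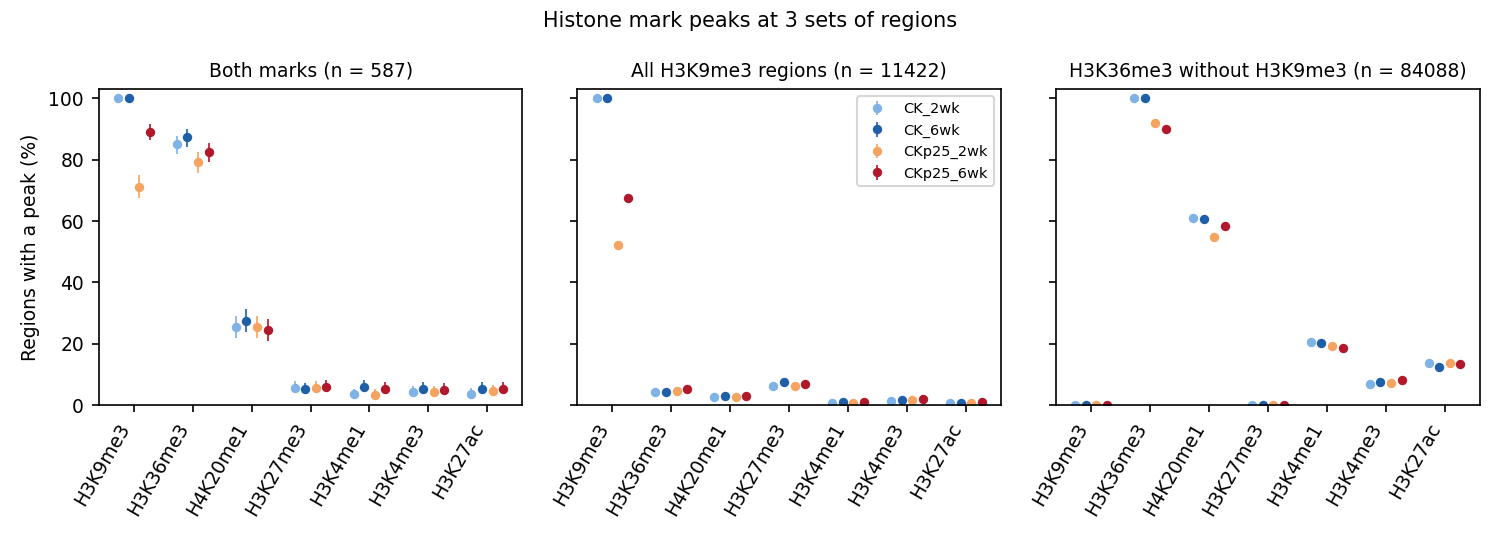
Share of regions (percent) with a peak of each of 7 marks in the 4 groups, for the 587 members, all 11422 H3K9me3 regions (members included) and 84088 H3K36me3-only regions; bars are exact binomial 95% intervals. Values of 0 or 100% for H3K9me3 and H3K36me3 in CK follow from how the sets were chosen, and H4K20me1 at 24.4 to 27.6% of members lies between the other 2 sets.

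The other 4 marks were rare. H3K27me3, the mark of Polycomb repression, was present at 33, 31, 33 and 35 members in CK_2wk, CK_6wk, CKp25_2wk and CKp25_6wk (5.62, 5.28, 5.62 and 5.96%), close to the 6.38, 7.54, 6.29 and 7.02% of all H3K9me3 regions. H3K4me1, found at enhancers, was present at 3.58, 5.96, 3.41 and 5.45% of members, against 0.727, 0.981, 0.876 and 1.23% of all H3K9me3 regions. H3K4me3, found at promoters, was present at 4.43, 5.45, 4.26 and 5.11%, against 1.53, 1.64, 1.72 and 2.02%. H3K27ac, found at active promoters and enhancers, was present at 3.75, 5.45, 4.60 and 5.45%, against 0.665, 0.692, 0.805 and 0.911%. The 6-week lists of H3K4me1, H3K4me3 and H3K27ac marked more members than the 2-week lists in both genotypes. The same was so over all 11422 H3K9me3 regions, where H3K4me1 was present at 83 in CK_2wk and 112 in CK_6wk, and at 100 in CKp25_2wk and 141 in CKp25_6wk. H3K4me1 was present in both 6-week lists and neither 2-week list at 9 members (1.53%), beside 0.175% of all H3K9me3 regions.

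Part of this came from 15 members that held all 7 marks in a control group, 8 of them in CK_2wk and all 15 in CK_6wk. They were strong by p-value and weak by fold: their H3K9me3 had a median -log10 p of 23.1 and a median fold of 2.23 in CK_2wk, against 8.74 and 3.61 at the other 572 members. Over all 7 marks and 4 groups their median folds lay between 1.61 and 2.57. Whether these peaks stand for the marks or for signal common to all lists was not tested. Of the 15, 6 lay in the group at the start of chromosome 9 and 4 between 98502320 and 98507502 on chromosome 2. Without them H3K27me3 was present at 3.15, 2.8, 3.15 and 3.5% of members, H3K4me1 at 1.57, 3.5, 1.22 and 2.97%, H3K4me3 at 2.27, 2.97, 2.10 and 2.62% and H3K27ac at 2.27, 2.97, 2.27 and 2.97%. H3K9me3 in CKp25 was then 70.5 and 88.8%, and H4K20me1 lay between 22.9 and 25.7%. The counts of H3K9me3, H3K36me3 and H4K20me1 thus did not rest on these 15.

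Of the 5 members strongest in H3K9me3, 4 came from this set. At chr17:39983962-39985870 the H3K9me3 -log10 p was 41.2 in CK_2wk, 76.2 in CK_6wk, 56.1 in CKp25_2wk and 55.3 in CKp25_6wk, at folds of 2.30, 2.89, 2.54 and 2.45, while H3K27me3 reached 72.2, 89.97, 83 and 69.7. Its neighbour chr17:39979855-39983894 had H3K9me3 at 39.2, 63.2, 37.7 and 41.5. At chr15:74916509-74917594 H3K9me3 was 41.1, 42.4, 23.0 and 23.5, and at chr2:98503725-98504373 it was 38.4, 51.8, 35.1 and 34.7. The fifth, chr9:3037985-3038581, had 34.7, 45.9, 29.2 and 31.5, with H3K36me3 peaks in CK_6wk and CKp25_6wk alone, at 30.3 and 29.6. It too held other marks, with H3K27me3 at 27.25, 34.96, 33.28 and 27.01. In all, 2, 5, 2 and 5 marks met the minimum there in CK_2wk, CK_6wk, CKp25_2wk and CKp25_6wk. All 5 had H3K9me3 in all 4 lists.

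Few members differed by genotype in a mark the choice did not use. The H3K9me3 regions set beside them include the members and carried H4K20me1 less often, at 2.78% against 25.4% of members in CK_2wk. A larger share of members with a difference thus does not show that marked members differed more often. H4K20me1 had a peak in both CKp25 lists and none of any height in control at 2 members (0.341%), beside 0.0525% of all H3K9me3 regions. At chr16:97762722-97764015 it was 14.3 in CKp25_2wk and 13.8 in CKp25_6wk, and H3K4me3 was also found in both CKp25 lists alone, at 5.7 and 7.95, the 1 such member beside 0.07% of all H3K9me3 regions. H3K9me3 there was 6.94, 6.99, 12.8 and 11.4 in CK_2wk, CK_6wk, CKp25_2wk and CKp25_6wk, and H3K36me3 7.35, 3.69, 15.7 and 17.7. The other, chr9:3023223-3023454, lay in the group at the start of chromosome 9, with H4K20me1 at 9.77 and 10.98 in CKp25. There 3, 6, 3 and 7 marks met the minimum in CK_2wk, CK_6wk, CKp25_2wk and CKp25_6wk.

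The reverse, H4K20me1 in both control lists and none in CKp25, was seen at 4 members (0.681%), also beside 0.0525%. At chr7:66928980-66929450, which also lacked H3K9me3 in CKp25, it was 6 in CK_2wk and 12.8 in CK_6wk. At chr8:79719831-79721015 it was 5.86 and 8.58, at chr17:33157888-33159104 5.56 and 7.42, and at chr19:41699490-41700255 5.04 and 5.63. H3K4me1 was seen in both control lists alone at 1 member, chr7:89919777-89920686, at 10.9 in CK_2wk and 8.27 in CK_6wk, beside 0.035% of all H3K9me3 regions. H3K27ac was seen in both control lists alone at 1 member, chr2:68119922-68120664, at 8.86 and 6.36, beside 0.0175%. These single-region differences are of 1 list against 1 list and have no replicate check. The 4 members with H4K20me1 in control alone were among 6 such regions of all 11422. As with the gains, the shares were not set relative to the regions that carried the mark.

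RNA was used to ask whether the enzymes and readers of both marks changed. The table held raw counts, with 5029996 to 6450140 gene counts per library, and 14457 of 37991 genes were tested. In each 2-week group 1 library, CK_2wk_4520 or CKp25_2wk_4518, was less like the rest: pairs that held it had a chi-square per gene of 5.495 to 8.55, against 1.46 and 2.18 for the remaining pairs. Levels are counts scaled to library size (CPM), and called means an adjusted p under 0.05 by edgeR's quasi-likelihood test with Benjamini-Hochberg adjustment over all genes tested. As the labels do not name separate animals, the spread behind each p may be a technical one. The list had 38 genes, of which 37 were tested and Dnmt3b was too low. At 2 weeks 6 were higher in CKp25 (16.2%, against 11.6% of all genes) and 0 lower (7.99% of all genes), with a median log2 fold change of 0.06 against -0.01 for all genes. At 6 weeks 4 were higher (10.8%, against 18.1%) and 7 lower (18.9%, against 15.2%), with a median of -0.04 against 0.00. At 2 weeks 3 listed genes were lower at an unadjusted p under 0.05, and DESeq2 also called 0 lower.

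Of the H3K9 methyltransferases, Setdb2 was higher at both times. Its level was 7.54, 4.5 and 5.69 CPM in the CK_2wk libraries and 9.77, 11.1 and 11.4 in CKp25_2wk (log2 fold change 0.85, SE 0.20, adjusted p by edgeR 0.00619). At 6 weeks it was 6.10, 5.06 and 7.51 against 9.4, 9.18 and 10 (0.60, SE 0.20, adjusted p by edgeR 0.0309). The 6-week call was lost in 5 of 6 fits that left out 1 library (all but CK_6wk_4009), at 0.47 to 0.62. Suv39h1 was 17.6, 17.0 and 18.1 CPM against 21.7, 21.9 and 23.7 at 2 weeks (0.35, SE 0.11, adjusted p by edgeR 0.03), and this call was lost in 5 of 6 such fits (all but CKp25_2wk_4518), at 0.32 to 0.37. Setdb1, the main H3K9 methyltransferase recruited by zinc finger proteins, was not called, with log2 fold changes of 0.00 at 2 weeks and -0.02 at 6 weeks.

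Among partners of H3K9me3, Daxx, a chaperone of histone H3.3, rose at 2 weeks. It was 15.8, 16.6 and 18.5 CPM in CK_2wk and 26.1, 24.7 and 29.6 in CKp25_2wk (0.66, SE 0.14, adjusted p by edgeR 0.00314). At 6 weeks it was 17.1, 20.8 and 21.5 against 15, 19.97 and 22.6, with overlapping groups. The difference of the effects between times did not pass the test (adjusted p by edgeR 0.119; 0.374% of all genes had a larger and 0.18% a smaller effect at 6 weeks). Atrx, the remodeller that works with Daxx, was called lower at 6 weeks, at 300.9, 349.8 and 320.1 CPM in CK against 273, 271 and 284 in CKp25 (-0.23, SE 0.08, adjusted p by edgeR 0.0298). That call was lost without any one of CK_6wk_3938, CK_6wk_4009, CKp25_6wk_3937, CKp25_6wk_3940 and CKp25_6wk_4008, at -0.17 to -0.25. Trim28, the corepressor that links zinc finger proteins to Setdb1, was not called at 2 weeks (0.17, SE 0.06, adjusted p by edgeR 0.0684) or 6 weeks (-0.06).

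Uhrf1, a reader of H3K9 methylation and hemimethylated DNA that acts in dividing cells, differed most. It was 0.503, 0.614 and 0.203 CPM in CK_2wk and 19.97, 24.5 and 32.03 in CKp25_2wk (5.77, SE 0.36, adjusted p by edgeR 6.05e-09), and 0.407, 0.607 and 0.873 against 7.4, 4.67 and 3.64 at 6 weeks (2.97, SE 0.42, adjusted p by edgeR 4.84e-05). None of the 4 erasers shared by both marks, Kdm4a to Kdm4d, was called at either time by edgeR or DESeq2. At each time 1 of the 4 was lower at an unadjusted p under 0.05. Of all genes, edgeR called 11.6% higher and 7.99% lower at 2 weeks, and 18.1 and 15.2% at 6 weeks. With 4 genes, a count of 0 does not set the erasers apart from these shares.

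**Figure D5:**
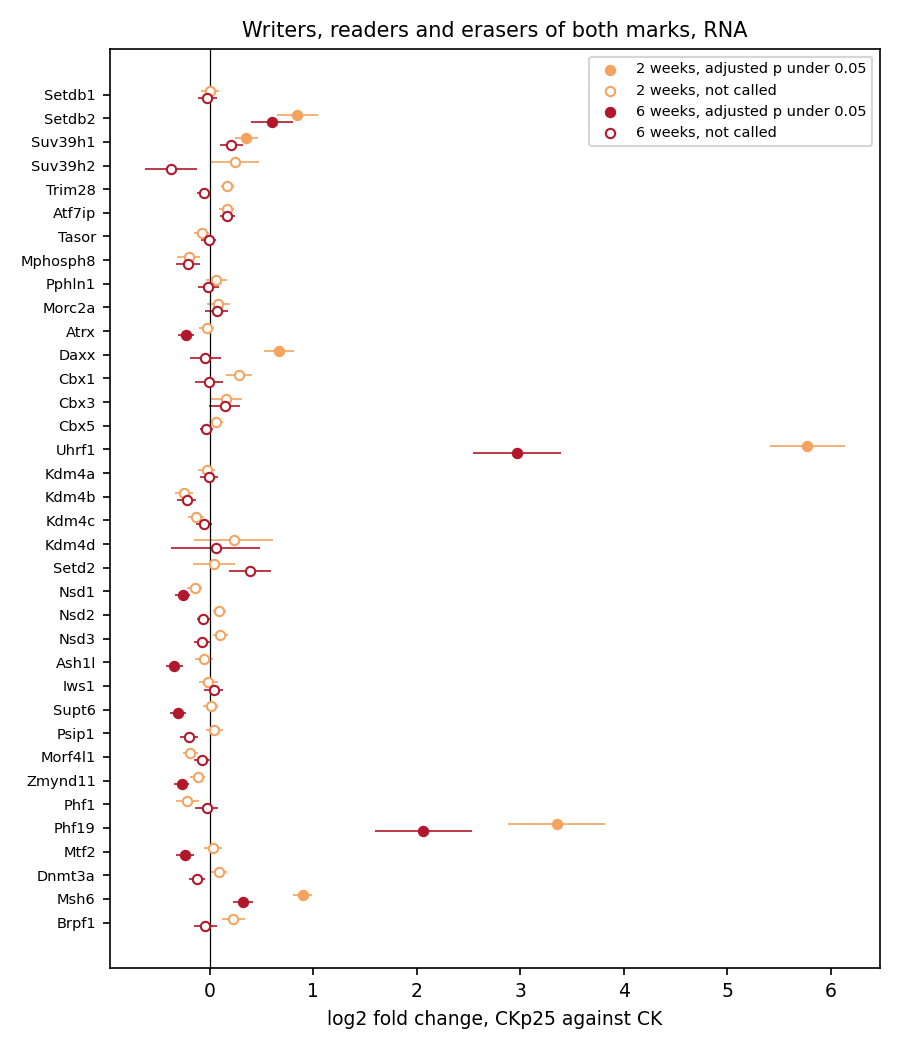
Log2 fold change of CKp25 against CK at 2 and 6 weeks (horizontal axis) for 36 of the 37 tested genes that write, read or erase H3K9me3 and H3K36me3; lines are 1 standard error and filled points have an adjusted p under 0.05 by edgeR. Uhrf1 (5.77 and 2.97) and Phf19 (3.35 and 2.06) stand to the right, and most others lie within 0.5 of 0.

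On the H3K36 side, Setd2, the enzyme that trimethylates lysine 36, was not called. It was 252, 155 and 158 CPM in CK_2wk, 264, 147 and 168 in CKp25_2wk, 147, 156 and 147 in CK_6wk and 224, 214 and 149 in CKp25_6wk, with a log2 fold change of 0.03 (SE 0.20) at 2 weeks and 0.39 (SE 0.21, adjusted p by edgeR 0.167) at 6 weeks. The latter was the largest change among genes not called. Nsd1 and Ash1l, which methylate lysine 36 to lower states, fell at 6 weeks, Nsd1 from 365, 376 and 361 to 288, 314 and 317 CPM (-0.26, SE 0.07) and Ash1l from 291, 331 and 296 to 235, 234 and 254 (-0.34, SE 0.09). Supt6, an elongation factor that brings Setd2 to the polymerase, fell from 204, 209 and 191 to 146, 169 and 173 CPM (-0.31, SE 0.08). Adjusted p-values by edgeR were 0.011, 0.00519 and 0.00465 for Nsd1, Ash1l and Supt6. None of the 3 calls was lost with DESeq2, without the filter or with the 6 libraries of that time alone. Nor was any lost with a term for the series of library numbers or without any 1 library. The 6-week libraries also differed in make-up by genotype. Counts in no gene feature were 41.6, 46.1 and 43.4% of the total in CK and 40.2, 38.1 and 39.2% in CKp25. Counts not uniquely aligned were 9.52, 6.86 and 7.32% against 11.5, 13.9 and 13.8%. None of these fits had a term for this, and its part in the 6-week falls was not tested.

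Of 9 tested readers of H3K36me3, 2 were called higher and 0 lower at 2 weeks. These are 22.2 and 0%, against 11.6 and 7.99% of all genes. DESeq2 also called 0 lower then, and 1 was lower at an unadjusted p under 0.05. At 6 weeks 2 were called higher and 2 lower (22.2% each, against 18.1 and 15.2% of all genes). DESeq2 called 1 higher and 1 lower at that time. Phf19, which brings Polycomb complexes to the mark, was 0.503, 0.205 and 0.203 CPM in CK_2wk and 2.92, 3.15 and 4.25 in CKp25_2wk (3.35, SE 0.47, adjusted p by edgeR 5.55e-05), and it rose by 2.06 (SE 0.47, adjusted p by edgeR 0.00249) at 6 weeks. Msh6, a mismatch repair protein that binds the mark, went from 22.6, 22.7 and 22.4 to 39.8, 40.8 and 45.8 CPM at 2 weeks (0.90, SE 0.09, adjusted p by edgeR 1.5e-06). At 6 weeks Msh6 was 22.6, 22.7 and 22.5 against 27.6, 27.7 and 29.3 (0.32, SE 0.10, adjusted p by edgeR 0.0167), a call lost without CKp25_6wk_4008, at 0.29. Zmynd11 fell at 6 weeks by 0.27 on the log2 scale (SE 0.07, adjusted p by edgeR 0.00823) and Mtf2 by 0.24 (SE 0.09, adjusted p by edgeR 0.0448). The call of Mtf2 was lost in 5 of 6 fits without 1 library (all but CKp25_6wk_3940), at -0.18 to -0.27. Without CK_6wk_3938 or CKp25_6wk_4008, 7 in place of 11 genes of the list were called at 6 weeks.

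Zinc finger genes, taken as every symbol of Zfp and digits, numbered 355, of which 314 were tested. At 2 weeks 9 were higher (2.87%) and 6 lower (1.91%), below the 11.6 and 7.99% of all genes. At 6 weeks 12 were higher (3.82%) and 28 lower (8.92%), below 18.1 and 15.2%. Their median log2 fold change was 0.00 at 2 weeks and -0.04 at 6 weeks. The quartiles were -0.15 and 0.157 at 2 weeks, against -0.177 and 0.222 for all genes. At 6 weeks they were -0.218 and 0.15, against -0.212 and 0.332. The lower quartile at 6 weeks was thus close to that of all genes, though a smaller share was called lower. The power to call these genes was not compared with that for all genes. The number called was 6 without CK_2wk_4893 and 9 without CKp25_2wk_4894 at 2 weeks, and 25 without CK_6wk_3938 or CKp25_6wk_4008 at 6 weeks, where DESeq2 called 22. The list was taken by name, holds genes of other zinc finger classes too, and does not place any region in a gene.

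Markers of cell types moved with genotype in the same libraries. All 4 microglia markers (Cx3cr1, Csf1r, C1qa, Aif1) were higher at both times, with a summed level of 118 to 133 CPM in CK_2wk against 440 to 594 in CKp25_2wk, and 110 to 124 against 582 to 762 at 6 weeks. All 3 astrocyte markers were also higher at both times. Of all genes tested, 11.6% were called higher and 7.99% lower at 2 weeks, and 18.1 and 15.2% at 6 weeks. Of 6 hippocampal neuron markers, 4 were lower at 2 weeks and 5 at 6 weeks, with a summed level of 1917 to 2039 CPM in CK_2wk, 1519 to 1736 in CKp25_2wk, 1697 to 2136 in CK_6wk and 1222 to 1414 in CKp25_6wk. The 3 oligodendrocyte and 3 endothelial markers were higher at 6 weeks, and at 2 weeks edgeR and DESeq2 called 0 of them, with 0 at an unadjusted p under 0.05. The 3 choroid plexus markers, summed, ranged from 13.4 to 2359 CPM with high and low libraries in every group. No marker was at 0 in any group. In whole tissue, fewer cells of a type and less RNA or less of a mark per cell cannot be told apart, and the part of cell composition in the RNA and peak results was not tested.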

How the data were processed

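RNA counts per Ensembl gene (1 table, 12 libraries, 3 per group) and 28 peak lists were deposited by the authors. The submitters' processing notes name Bowtie, Picard, MACS2 and HTSeq 0.6.1, and the builds NCBIM37 and mm9. Pooling of animals and the depth behind the peaks are not given in the sources used here. The peak lists hold the authors' fold enrichment over whole cell extract (a linear ratio) and the -log10 of its p-value. In the count table the 5 entries that name no gene held 60.0 to 63.6% of a library's total and were left out.

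Peaks were merged and overlapped in Python 3.11.15 with pandas 2.3.3; coordinates are mm9, 1-based. No mm9 sequence or annotation was used here, so no gene is named at a region. Region groups allow gaps of 500 kb. Counts passing filterByExpr were scaled by TMM and fitted with 4 group means in edgeR 4.0.16 (R 4.3.3); DESeq2 1.42.0 was an alternative. On simulated counts of the 2-week comparison (14457 genes), 82% of 200 genes changed 2-fold were recovered. The chi-square per gene between libraries was 1.46 to 8.55 for the 12 pairs within groups and 2.67 to 28.2 for the 54 pairs between groups. All 38 listed genes matched a symbol in the table, older symbols included. Counts of near-identical zinc finger genes are uncertain.

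Named regions were, by rule, the 5 strongest and 3 widest members, the largest groups, the 5 strongest members without CKp25 H3K9me3, members with another mark in 1 genotype alone and those nearest the minimum; named genes were those called and the most changed not called. The values of 1 called gene are not reported here, though it stays in the counts. A sixth group is named because it ties in size with the fifth. The members, lists and rules were chosen with earlier results of these data known. Alternatives changed the minimum, overlap, merging, list length and window, left out members or libraries, or changed the count model.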

Additional observations from a re-analysis of the deposited data

How the results depend on the processing

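The number of regions depended on the minimum, with 1237 at a -log10 p of 3 and 207 at 8. At the minimum of 5, H4K20me1 was present in at least 1 group at 35.8% of members and H3K27me3 at 6.47%. By the same count H3K4me1 was present at 6.98%, H3K4me3 at 6.30% and H3K27ac at 7.33%. At a minimum of 3, H3K36me3 was present at 78.7% of members in CKp25_6wk and H4K20me1 in at least 1 group at 47.5%. At 8, H4K20me1 was present in at least 1 group at 20.3% of members, H3K27me3 at 10.6%, H3K4me1 at 11.1% and H3K4me3 at 10.1%. Merging peaks up to 1000 bp apart gave 46.6% for H4K20me1 in at least 1 group. Equal numbers of peaks gave H3K9me3 at 78.7% (2 weeks) and 85.9% (6 weeks). Without the 15 members holding all marks, H3K27me3 was present in at least 1 group at 4.02%, H3K4me1 at 4.55%, H3K4me3 at 3.85% and H3K27ac at 4.90%.

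The share of H3K9me3 peaks with H3K36me3 in CK_2wk, CK_6wk, CKp25_2wk and CKp25_6wk was tried under settings chosen after seeing the data. It was 3.79 and 3.66% in CK at a minimum of 3, 4.40, 3.94 and 6.74% in the first 3 groups at 8, 3.16, 3.16, 4.28 and 4.79% with the larger overlap, set relative to the shorter peak, 4.22 and 3.83% in CK and 5.55% in CKp25_6wk with equal numbers, and 3.80, 3.79, 5.23 and 5.64% within 500 bp of the summit. Both CKp25 groups lay above both CK groups in each of these, but no interval was computed for these shares. With equal numbers such peaks were 764 of 16689 in CKp25_2wk and 704 of 16689 in CK_2wk. At the minimum of 5 the H3K36me3 peaks covered 159 Mb in CKp25_2wk and 150 Mb in CK_2wk. They covered 149 Mb in CKp25_6wk and 138 Mb in CK_6wk, and the part of this in the shares was not tested.

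Leaving out each library gave 5 to 6 pathway genes called at 2 weeks and 7 to 10 at 6 weeks, and 6 to 19 and 25 to 44 zinc finger genes. DESeq2 called 22 zinc finger genes at 6 weeks; the cause was not tested. A term for the series of library numbers (their first digits, whose meaning the labels do not give), chosen after seeing the data, gave 7 and 12 pathway genes and 21 and 46 zinc finger genes. By DESeq2 the calls of Suv39h1 at 2 weeks (adjusted p = 0.14) and of Setdb2, Mtf2 and Msh6 at 6 weeks (0.0823, 0.11 and 0.0923) were lost. No paired analysis was possible because no library number occurs in more than 1 group and each peak group has 1 list; the series term groups libraries without pairing them. Peak depth is unknown, so absence of a peak is not absence of a mark.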
